A study of Mus musculus with 12 samples.

Results

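The nephron lineage transcription factors described here are the 8 genes Hnf4a, Tfcp2l1, Pou3f3, Pax8, Pax2, Emx1, Emx2 and Lhx1. They were taken by gene symbol from a count table of 46882 genes, where each has 1 row. All 8 had enough reads to be tested, among 16910 genes that did. The samples are whole kidneys of C57BL/6 mice at 6 to 8 weeks of age, from 6 wild-type (WT) and 6 A1cf -/- (A1cf KO) animals. The labels give no treatment, no sex and no account of how the A1cf allele was made. A1CF is an RNA-binding protein that helps APOBEC1 edit the mRNA of apolipoprotein B, and the question put to these genes is whether their mRNA levels differed without it.

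These factors act in the intermediate mesoderm and in the cells it gives rise to. Pax2 and Pax8 are paired-box proteins with overlapping roles at the start of the nephric lineage, Lhx1 is a LIM-homeodomain protein needed for the nephric duct and for tubule formation, and Emx2 is a homeodomain protein needed for the ureteric bud to branch. Later, 3 of the factors are best known from certain segments. HNF4A is a nuclear receptor needed for proximal tubule cells to mature, POU3F3 is a POU-domain protein needed for the loop of Henle and distal tubule, and TFCP2L1 is a grainyhead-like protein that patterns the cells of the collecting duct. Emx1 is the paralogue of Emx2 and is best known from the cerebral cortex.

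Hnf4a is shown by sequence because it can start at 2 promoters, which the counts per gene cannot tell apart. Adult liver and kidney are known to use mainly the downstream start, and the upstream one is best known from the endocrine pancreas. The sequences are the 250 bases before each start in RefSeq on GRCm38.p6, plus strand, at chr2:163506607-163506856 and chr2:163546905-163547154.
Hnf4a upstream start: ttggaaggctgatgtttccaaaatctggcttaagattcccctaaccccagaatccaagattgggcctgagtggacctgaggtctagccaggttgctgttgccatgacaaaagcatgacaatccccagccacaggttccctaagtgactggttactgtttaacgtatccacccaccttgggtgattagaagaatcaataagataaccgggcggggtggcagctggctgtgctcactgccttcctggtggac
Hnf4a downstream start: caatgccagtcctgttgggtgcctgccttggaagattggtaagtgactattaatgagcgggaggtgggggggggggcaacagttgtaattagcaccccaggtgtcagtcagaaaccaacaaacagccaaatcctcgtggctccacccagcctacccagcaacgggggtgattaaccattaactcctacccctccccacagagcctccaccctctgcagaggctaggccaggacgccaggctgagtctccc
G and C made up 51.2% of the upstream window and 57.6% of the downstream one. The 8 genes have 11 such windows, and these were the lowest of them in G and C except for 1 window of Pax2 at 52.8%, with Emx1 highest at 75.6%.

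CPM are read counts divided by the library total, scaled by TMM to be comparable between libraries, and errors are SD over 6 libraries per genotype unless another n is given. Libraries held 26671705 to 52899139 counts, and the 8 factors had between 576 and 51805 counts per library. A1cf was at 54.5 ± 7.39 (WT) and 4.11 ± 1.07 CPM (A1cf KO) with no overlap, so the libraries matched their labels. Markers of kidney segments were present, with Slc34a1 of the proximal tubule at 4240 ± 1219 CPM and Umod of the loop of Henle at 3084 ± 326 CPM in WT. Animal numbers fall into 2 runs that are uneven between genotypes, the lower (573 to 602) holding 3 WT and 5 A1cf KO and the higher (776 to 780) 3 WT and 1 A1cf KO. WT 777 stood apart. Its 8 urothelial markers summed to 110.6 CPM against 3.67 to 22.8 CPM in the other 11 libraries, led by Psca at 48.0 CPM. It also had the highest summed markers of the loop of Henle, thin limb, principal cell and endothelium lists, the second highest of the fat list at 365 CPM (A1cf KO 602 had 529 CPM), and the lowest of the proximal tubule and intercalated cell lists. In 2 of 8 adrenal cortex markers, Cyp11b2 and Nr5a1, no library had a read, and that list summed to 3.26 to 5.37 CPM. In whole kidney RNA, fewer cells of a type and less RNA per cell cannot be told apart.

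Per kilobase of exon, Hnf4a and Tfcp2l1 led the 8 factors. Mean RPKM (CPM per kilobase of exon) over the 12 libraries was 182 ± 18.2 for Hnf4a and 63.2 ± 5.26 for Tfcp2l1. The other 6 factors followed in the order Emx1 at 13.8 ± 1.89, Pax8 at 11.1 ± 0.84, Pou3f3 at 9.97 ± 0.93, Emx2 at 9.42 ± 1.39, Lhx1 at 6.41 ± 0.86 and Pax2 at 3.94 ± 0.73 RPKM. The ranges of neighbours in this order were apart only for Hnf4a above Tfcp2l1 and Tfcp2l1 above Emx1, each in 12 of 12 libraries. Emx1 and Pax8, Pax8 and Pou3f3, and Pou3f3 and Emx2 overlapped, and the upper gene of each pair was higher in 10 of 12 libraries. Lhx1 lay below Emx2 in 12 of 12 libraries and above Pax2 in 11 of 12, with overlapping ranges. Hnf4a made up 60.5% of the summed RPKM of the 8 factors and Tfcp2l1 21.2%. The steadiest level was that of Pax8, with a coefficient of variation over 12 libraries of 7.56%, and the least steady that of Pax2, at 18.6%.

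**Figure D1:**
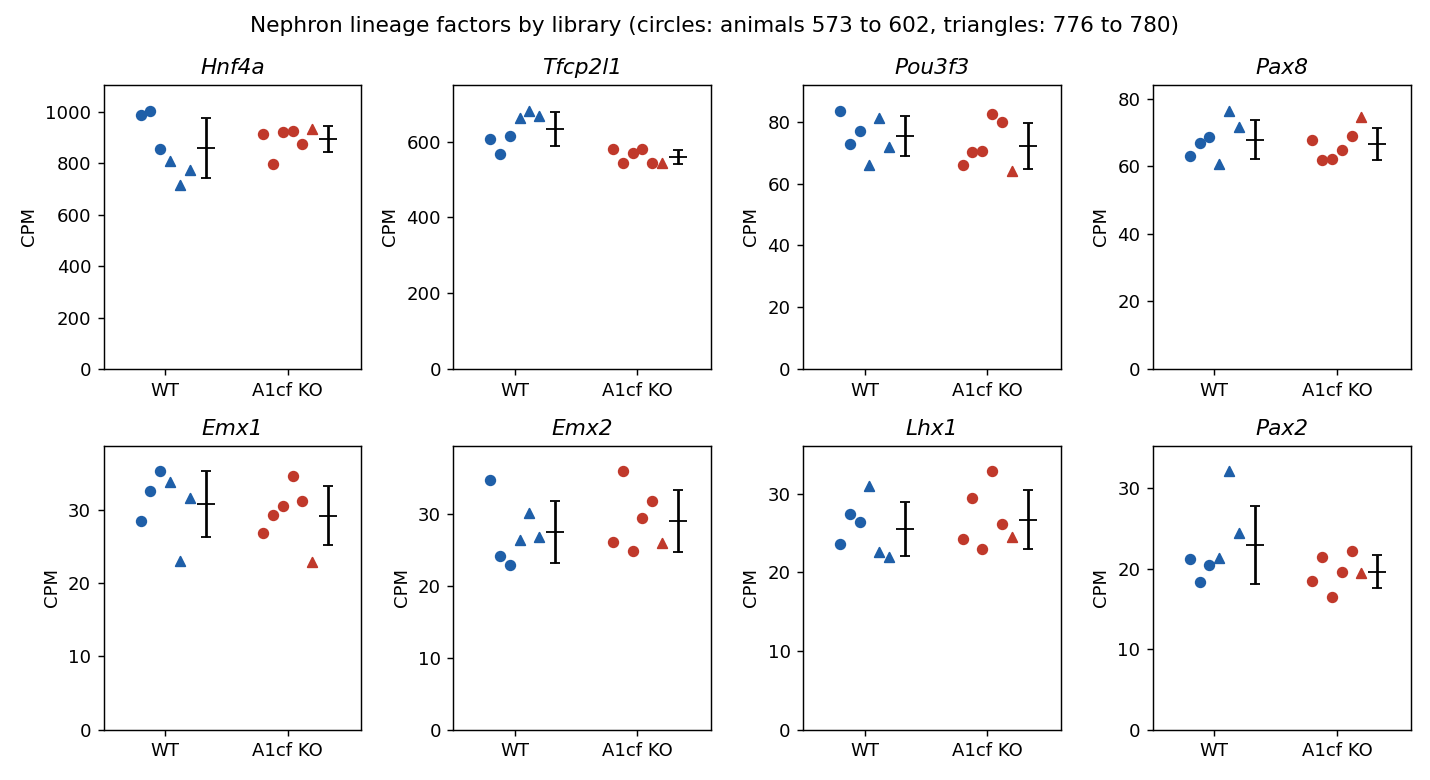
Level of each factor in CPM on a linear axis from 0, 1 point per library, for WT (blue) and A1cf KO (red), with circles for animals 573 to 602, triangles for animals 776 to 780, and bars for the mean and SD of 6 libraries. Genotypes overlap in all 8 panels, and the 6 A1cf KO libraries of Tfcp2l1 lie at 544 to 580 CPM against a WT median of 638 CPM.

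None of the 8 factors passed the test between genotypes. With edgeR's quasi-likelihood test at an adjusted p of 0.05, 0 of 8 passed, and so did 0 of 8 with DESeq2. Over all genes tested, edgeR called 8 (0.0473%) and DESeq2 170 (1.01%). At an unadjusted p under 0.05, 1 of the 8 was counted, Tfcp2l1, beside 10.4% of all genes in either direction and 5.28% in the lower direction. In 0 of 8 were the genotypes free of overlap, beside 0.84% of all genes. The log2 fold change (A1cf KO relative to WT) was negative for 5 of 8, beside 50.8% of all genes, with a median of -0.04 against -0.003 over all genes. The median size of the change without its sign was 0.07 for the 8 factors and 0.10 for all genes.

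**Figure D2:**
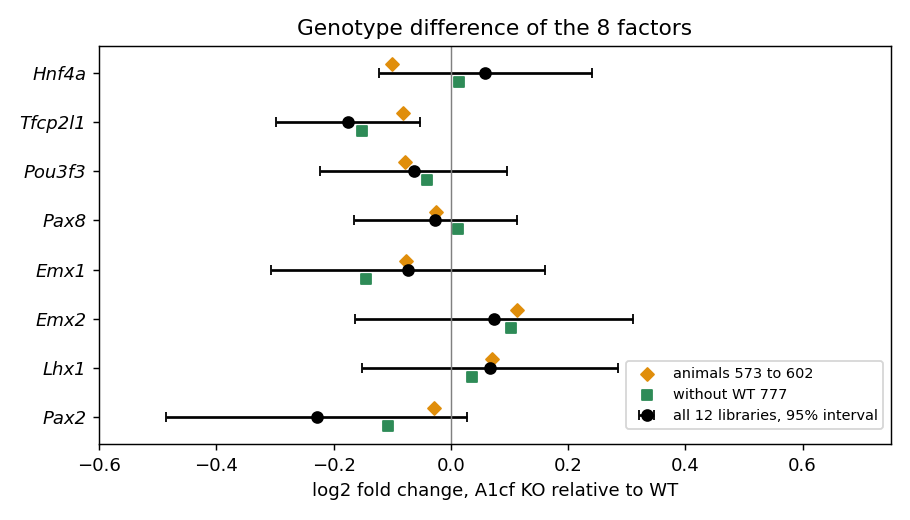
Log2 fold change of each factor, A1cf KO relative to WT, with black points and 95% interval bars for all 12 libraries, orange diamonds for animals 573 to 602 and green squares without WT 777. The interval of Tfcp2l1, -0.30 to -0.05, is the 1 of 8 that leaves out 0, and Pax2 moves from -0.23 to -0.11 without WT 777.

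Hnf4a sits at 163506808 to 163572910 of mm10 chromosome 2, plus strand, with 13 counted exon blocks. In WT it ran from 718 CPM in WT 777 over a median of 834 to 1005 CPM in WT 590. In A1cf KO it ran from 797 CPM in animal 584 over a median of 918 to 932 CPM in animal 780. The A1cf KO range thus lay inside the WT range. The means were 859 ± 116 and 894 ± 51.9 CPM, for a log2 fold change of 0.06 (95% interval -0.12 to 0.24, edgeR adjusted p = 0.85). It was 0.01 without WT 777 and 0.11 without WT 590. The sign turned within animals 573 to 602, at -0.10 (edgeR adjusted p = 0.81). Among WT libraries Hnf4a was at 858 to 1005 CPM in animals 573 to 601 and at 718 to 810 CPM in animals 776 to 778. Those runs of 3 libraries each did not overlap, which was not tested, while A1cf KO 780 was at 932 CPM. The share of all genes with such a gap was not counted.

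Tfcp2l1 had the smallest p of the 8. It shares 130 exon bases with Gm23497, which had no read in any library, and sits at 118627945 to 118685168 of chromosome 1, plus strand. In WT it ran from 567 CPM in WT 590 over a median of 638 to 681 CPM in WT 777, and in A1cf KO from 544 CPM in animal 602 over a median of 557 to 580 CPM in animal 574. All 6 A1cf KO libraries lay below the WT median and 3 lay below the lowest WT library. The means were 633 ± 44.0 and 561 ± 18.4 CPM, for a log2 fold change of -0.18 (95% interval -0.30 to -0.05, edgeR unadjusted p = 0.0084). Adjusted over all genes the p was 0.33 with edgeR and 0.085 with DESeq2, so the difference did not pass. Among WT libraries the 2 animal runs, with 3 libraries each, did not overlap. This was not tested, and the share of all genes with such a gap was not counted. Animals 573 to 601 were at 567 to 615 CPM and animals 776 to 778 at 661 to 681 CPM, while A1cf KO 780 was at 545 CPM. Of the 6 A1cf KO animals, 5 belong to the lower-numbered run. Within animals 573 to 602 the log2 fold change was -0.08 (edgeR adjusted p = 0.80), and with the run as a covariate it was -0.14 (edgeR adjusted p = 0.33).

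Pax2 and Pax8 are close paralogues, and Pax2 varied most. Pax2 sits at 44756045 to 44837871 of chromosome 19, plus strand, 12.8 Mb from A1cf. It ran from 18.4 CPM in WT 590 over a median of 21.3 to 32.1 CPM in WT 777, and in A1cf KO from 16.5 CPM in animal 588 over a median of 19.6 to 22.2 CPM in animal 602. WT 777 was the 1 library far above the rest, which lay at 24.4 CPM or lower. The means were 23.0 ± 4.87 and 19.6 ± 2.06 CPM, for a log2 fold change of -0.23 (95% interval -0.49 to 0.03, edgeR adjusted p = 0.52). Without WT 777 it was -0.11 (edgeR adjusted p = 0.70), and within animals 573 to 602 it was -0.03 (edgeR adjusted p = 0.96).

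Pax8 sits at 24420560 to 24475599 of chromosome 2, minus strand. It ran from 60.7 CPM in WT 776 over a median of 67.8 to 76.5 CPM in WT 777, and in A1cf KO from 61.8 CPM in animal 584 over a median of 66.5 to 74.5 CPM in animal 780. The genotypes covered nearly the same range, with means of 67.9 ± 5.77 and 66.7 ± 4.78 CPM and a log2 fold change of -0.03 (95% interval -0.17 to 0.11, edgeR adjusted p = 0.92). The sign turned without WT 777, at 0.01, and likewise with the animal run as a covariate. The opposite-strand gene Gm13415 shares 367 exon bases with Pax8 and was at 0.42 ± 0.20 (WT) and 0.49 ± 0.16 CPM (A1cf KO). The ratio of Pax2 to Pax8 in RPKM, a comparison added after the data were seen, was 0.37 in WT and 0.33 in A1cf KO as geometric means (exact two-sided permutation p = 0.12, adjusted over 2 ratios 0.24). It ran from 0.29 in A1cf KO 780 to 0.47 in WT 777.

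Pou3f3 is a gene of 1 exon block at 42695768 to 42703176 of chromosome 1, plus strand. It ran from 66.2 CPM in WT 776 over a median of 75.1 to 83.7 CPM in WT 573, and in A1cf KO from 64.2 CPM in animal 780 over a median of 70.4 to 82.6 CPM in animal 591. Neither range reached far beyond the other. The means were 75.5 ± 6.46 and 72.3 ± 7.44 CPM, for a log2 fold change of -0.06 (95% interval -0.22 to 0.10, edgeR adjusted p = 0.80). Leaving out 1 library gave -0.03 (A1cf KO 780 or WT 573) to -0.11 (A1cf KO 591).

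Emx1 sits at 85187438 to 85204462 of chromosome 6 and Emx2 at 59458372 to 59465357 of chromosome 19, 27.5 Mb from A1cf, both plus strand. Emx1 ran from 23.0 CPM in WT 777 over a median of 32.2 to 35.3 CPM in WT 601, and in A1cf KO from 22.9 CPM in animal 780 over a median of 29.9 to 34.7 CPM in animal 591. Thus 1 library of each genotype lay at about 23 CPM and the other 10 at 26.9 CPM or higher. The means were 30.8 ± 4.45 and 29.3 ± 4.04 CPM, for a log2 fold change of -0.07 (95% interval -0.31 to 0.16, edgeR adjusted p = 0.86). It was -0.14 without WT 777, -0.01 without A1cf KO 780 and -0.15 with the animal run as a covariate.

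Emx2 ran from 22.9 CPM in WT 601 over a median of 26.6 to 34.7 CPM in WT 573, and in A1cf KO from 24.8 CPM in animal 588 over a median of 27.7 to 35.9 CPM in animal 584. Each genotype had 1 library near 35 CPM. The means were 27.5 ± 4.31 and 29.0 ± 4.27 CPM, for a log2 fold change of 0.07 (95% interval -0.16 to 0.31, edgeR adjusted p = 0.86). It was 0.004 without A1cf KO 584 and 0.15 without WT 573. The opposite-strand gene Emx2os shares 264 exon bases with Emx2 and was at 5.67 ± 0.92 (WT) and 5.40 ± 0.68 CPM (A1cf KO), and reads there could not be assigned by strand. The ratio of Emx1 to Emx2 in RPKM was 1.54 in WT and 1.39 in A1cf KO as geometric means (exact two-sided permutation p = 0.45, the same after adjustment over the 2 ratios). It ran from 1.05 in WT 777 to 2.11 in WT 601.

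Lhx1 sits at 84518284 to 84525535 of chromosome 11, minus strand. It ran from 21.99 CPM in WT 778 over a median of 25.0 to 31.0 CPM in WT 776, and in A1cf KO from 23.0 CPM in animal 588 over a median of 25.4 to 32.8 CPM in animal 591. The ranges overlapped almost throughout, and the A1cf KO one reached slightly higher. The means were 25.5 ± 3.44 and 26.7 ± 3.75 CPM, for a log2 fold change of 0.07 (95% interval -0.15 to 0.29, edgeR adjusted p = 0.86). It was -0.002 without A1cf KO 591 and 0.13 without WT 776.

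Because whole kidneys can differ in their share of each segment, 4 factors were each set against the markers of a segment known to express them. The value is the log2 CPM of the factor minus the mean log2 CPM of its marker list. Expression of a factor in other segments is not accounted for. Pou3f3 against 9 loop of Henle markers was at 0.30 ± 0.17 in WT, from 0.14 to 0.54, and at 0.53 ± 0.11 in A1cf KO, from 0.36 to 0.69. The difference of 0.23 had an exact two-sided permutation p of 0.028, or 0.11 adjusted over the 4 factors, so it did not pass, and the genotypes overlapped. With the median of the markers in place of the mean it was 0.35 and passed (adjusted exact permutation p = 0.0087), and without WT 601 it was 0.28 and passed (adjusted exact permutation p = 0.026). Within animals 573 to 602 it was 0.10 (adjusted exact permutation p = 0.69), but with so few libraries a single factor could not pass there. The loop of Henle mean itself was 5.94 ± 0.16 log2 CPM in WT and 5.64 ± 0.11 in A1cf KO, so the marker side of this difference was larger than the change of Pou3f3.

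For the remaining 3 factors the difference between genotypes was 0.03 or less in size. Hnf4a against 12 proximal tubule markers differed by 0.02 between genotypes (adjusted exact permutation p = 0.96). Tfcp2l1 against the principal and intercalated cell lists together was at 3.31 ± 0.07 in WT and 3.33 ± 0.08 in A1cf KO, a difference of 0.03 (adjusted exact permutation p = 0.96). Its sign was opposite to that of the Tfcp2l1 difference in CPM. Pax2 against the same lists differed by -0.01 (adjusted exact permutation p = 0.96), with WT 777 at -0.98 and the other WT libraries from -1.71 to -1.46. The sign turned without WT 777, to 0.09.

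Across the 12 libraries, Hnf4a and Pax2 moved in opposite directions. Of 28 pairs of factors, this was the 1 pair past an adjusted p of 0.05 (Pearson r = -0.79, permutation p = 0.0015, adjusted 0.043), while Spearman's rho was -0.76 (permutation p = 0.0054, adjusted 0.15). Without WT 777 and WT 778, the 2 libraries farthest from the median of Hnf4a, r was -0.48 and did not pass (adjusted permutation p = 0.73). That setting has fewer libraries and a narrower range of Hnf4a, so it cannot tell whether the relation rests on those 2. Within WT r was -0.83, within A1cf KO -0.61 and within animals 573 to 602 -0.41, none past the threshold after adjustment (exact permutation, adjusted p = 0.33, 0.69 and 0.88).

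**Figure D3:**
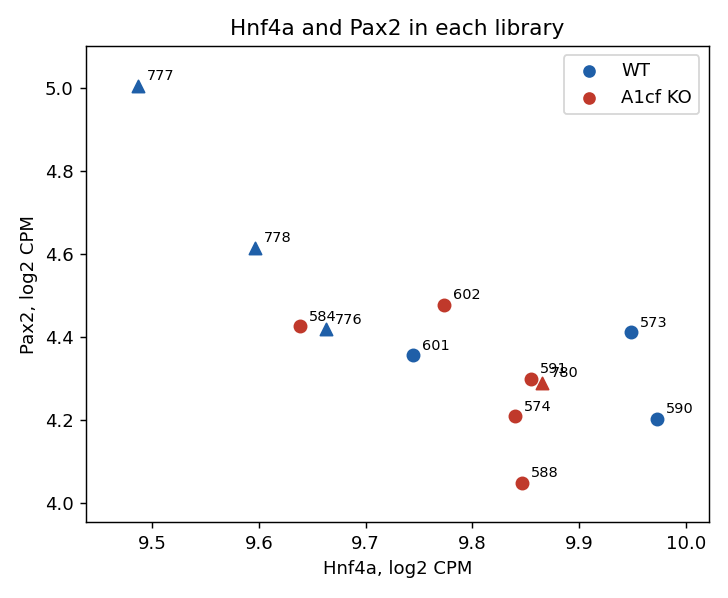
Pax2 against Hnf4a in each library, both as log2 CPM, with WT in blue and A1cf KO in red, circles for animals 573 to 602 and triangles for animals 776 to 780, labelled by animal number. WT 777 sits alone at the top left, with Pax2 at 32.1 CPM and Hnf4a at 718 CPM.

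The factors were also set against the mean log2 CPM of 5 segment lists, which gives 40 relations. Those of the loop of Henle list with Pax2 (r = 0.80, permutation p = 0.0011, adjusted 0.044) and with Tfcp2l1 (r = 0.79, permutation p = 0.0023, adjusted 0.045) passed by Pearson's r. By Spearman's rho they were 0.63 and 0.69 (both adjusted permutation p = 0.46). Without WT 777 and WT 778 r was 0.51 for Pax2 and 0.56 for Tfcp2l1, and with fewer libraries neither relation passed (both adjusted permutation p = 0.67). With Pax2, r was 0.89 within WT, 0.57 within A1cf KO and 0.48 within animals 573 to 602. With Tfcp2l1 it was 0.67 within WT, -0.01 within A1cf KO and 0.32 within animals 573 to 602. None of these 6 passed after adjustment. Hnf4a and the proximal tubule list had r = 0.70 and rho = 0.57 (adjusted permutation p = 0.10 and 0.47), and r = 0.58 without WT 776 and WT 777.

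Genes whose pattern was most like that of each factor were taken by the highest Pearson r of log2 CPM over the 12 libraries, among 12682 genes with a mean of at least 1 CPM. They are a description, picked as the highest of many. For Pax2 they were Tspan6 (r = 0.95), Hoxb9 (0.94) and Rhpn2 (0.93), and WT 777 was the highest library of all 3, at 11.6, 39.4 and 20.5 CPM against at most 5.34, 27.5 and 12.5 CPM elsewhere. For Tfcp2l1 they were Gca, Adgrg1 and Oat (each r = 0.93). For Hnf4a they included Rprd1b (0.90) and Nr2c2ap (0.89). For Emx1 the nearest was Sall3 (0.94), for Pax8 Gabre (0.90), for Pou3f3 Elfn1 (0.85), for Emx2 Rbfox2 (0.84) and for Lhx1 Fam210b (0.80).

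Other genes of the nephron lineage gave no call with edgeR either. Of 12 nephron progenitor and early nephron factors 7 were tested. Six2, the transcription factor that holds nephron progenitors in a renewing state, had no read in any library, and Eya1, Cited1 and Fgf8 were among those with too few to test. Wnt4, a signal for the change of mesenchyme to epithelium, was the 1 with an unadjusted p under 0.05 (log2 fold change -1.36, edgeR adjusted p = 0.46), and it stood at 14.6 CPM in WT 777 and at 1.02 to 1.89 CPM in the other 11 libraries. Without WT 777 its log2 fold change was -0.005. The median log2 fold change of the 7 was -0.03, and 0.24 within animals 573 to 602.

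Among 23 transcription factors of adult tubule segments, edgeR called 0, with a median log2 fold change of -0.04, or 0.007 without WT 777. The unadjusted p was under 0.05 for 3 that were higher and 4 that were lower, beside 10.4% of all genes in either direction. DESeq2 called 1 of them, Irx3, an Iroquois homeodomain factor, at 25.2 ± 3.46 (WT) and 32.7 ± 3.35 CPM (A1cf KO) (log2 fold change 0.37, edgeR adjusted p = 0.20, DESeq2 adjusted p = 0.028). Esrrb, an orphan nuclear receptor, was at 43.3 ± 14.02 and 28.8 ± 8.04 CPM (log2 fold change -0.59, edgeR adjusted p = 0.37, and -0.21 within animals 573 to 602). Of 20 relatives and cofactors of the 8 genes 12 were tested. Pax3, Pou3f2 and Pou3f4 had no read in any library, and edgeR and DESeq2 called 0 of the 12, with 2 higher and 1 lower at an unadjusted p under 0.05. Nr2f2, a nuclear receptor, was at 42.3 ± 3.20 and 49.4 ± 5.603 CPM (log2 fold change 0.22, edgeR adjusted p = 0.35), and Ppargc1a, a coactivator of HNF4A, at 78.3 ± 11.3 and 67.8 ± 4.55 CPM (log2 fold change -0.21, edgeR adjusted p = 0.43, and -0.03 within animals 573 to 602). Of the tested stromal and podocyte factors (9) and inductive signals (12), edgeR and DESeq2 called 0 and none had an unadjusted edgeR p under 0.05.

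Genes known to depend on the segment factors were counted next, beside the median of -0.003 over all genes. EdgeR called 0 of 18 genes of the HNF4A list, with 10 negative and 8 positive log2 fold changes and a median of -0.05 (-0.08 without WT 777). At an unadjusted p under 0.05, 2 of them were higher and 1 lower, beside 10.4% of all genes in either direction. DESeq2 called 1, Cyp2e1, a cytochrome P450, at 1774 ± 273 (WT) and 2369 ± 374 CPM (A1cf KO) (log2 fold change 0.42, edgeR adjusted p = 0.27, DESeq2 adjusted p = 0.044, and 0.22 within animals 573 to 602). Pck1, which encodes the gluconeogenic enzyme phosphoenolpyruvate carboxykinase, was at 6207 ± 796 and 5929 ± 719 CPM (log2 fold change -0.07, edgeR adjusted p = 0.87).

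The POU3F3 list has 5 genes, 3 of which are also in the loop of Henle marker list, and all 5 log2 fold changes were negative, with a median of -0.32. The median was -0.19 without WT 777 and -0.12 within animals 573 to 602. EdgeR called 0, with 4 lower at an unadjusted p under 0.05, beside 5.28% of all genes. DESeq2 called Umod, which encodes uromodulin, at 3084 ± 326 (WT) and 2218 ± 213 CPM (A1cf KO) with no overlap (log2 fold change -0.48, edgeR adjusted p = 0.11, DESeq2 adjusted p = 5.5e-05). Bsnd, the chloride channel subunit barttin, was at 58.4 ± 9.37 and 44.2 ± 6.22 CPM (log2 fold change -0.40, edgeR adjusted p = 0.26). Slc12a1, the sodium-potassium-chloride cotransporter of the thick ascending limb, was at 1012 ± 269 and 813 ± 86.8 CPM (log2 fold change -0.32, edgeR adjusted p = 0.47), with WT 777 highest at 1466 CPM, and its log2 fold change without that library was -0.18.

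In the TFCP2L1 list 9 of 10 genes were tested, since Avpr2 had too few reads, and 8 of 9 log2 fold changes were negative, with a median of -0.27, or -0.13 within animals 573 to 602. EdgeR and DESeq2 called 0. Beside 5.28% of all genes, 2 of the 9 were lower at an unadjusted p under 0.05. Those were Atp6v1b1, a proton pump subunit of intercalated cells, at 123 ± 14.2 and 102 ± 6.55 CPM (log2 fold change -0.27, edgeR adjusted p = 0.27), and Slc4a1, their chloride-bicarbonate exchanger, at 37.4 ± 5.40 and 30.2 ± 4.96 CPM (log2 fold change -0.31, edgeR adjusted p = 0.38). Aqp2, the vasopressin-regulated water channel of principal cells, was at 188 ± 74.9 and 138 ± 28.1 CPM (log2 fold change -0.44, edgeR adjusted p = 0.51), with WT 777 at 319 CPM and the other 11 libraries at 90.7 to 204 CPM. Without WT 777 its log2 fold change was -0.22. The medians of the POU3F3 and TFCP2L1 lists lay further below 0 over the 12 libraries than the log2 fold changes of Pou3f3 (-0.06) and Tfcp2l1 (-0.18). Whether list and factor differed from each other was not tested. Markers of the same segments lay on the same side of 0: log2 fold changes were negative for 8 of 9 loop of Henle markers (median -0.41), 8 of 8 tested principal cell markers (median -0.22) and 10 of 11 intercalated cell markers (median -0.23). These marker lists share genes with the POU3F3 and TFCP2L1 lists, so their counts are not independent. Shared with the TFCP2L1 list are Aqp2, Aqp4, Hsd11b2, Atp6v1b1, Slc4a1, Kit and Slc4a9. The lists of other cell types had negative values for 9 of 9 distal convoluted tubule markers (median -0.22) and 8 of 8 thin limb markers (median -0.30, or -0.03 without WT 777). Values were positive for 8 of 8 stroma and smooth muscle markers (median 0.29) and 9 of 12 proximal tubule markers (median 0.10, but -0.05 within animals 573 to 602). The proximal tubule list shares genes such as Slc34a1 and Slc22a6 with the HNF4A list, so these 2 are not independent either. The loop of Henle markers summed to 4161 to 5877 CPM in WT and 3137 to 4031 CPM in A1cf KO, and the part of segment makeup in the POU3F3 and TFCP2L1 lists was not tested.

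**Figure D4:**
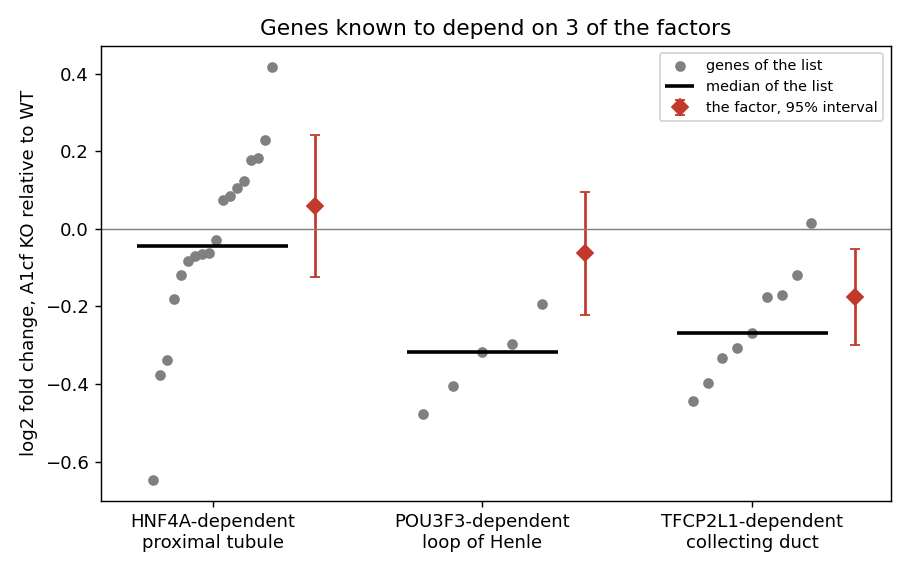
Log2 fold change, A1cf KO relative to WT, of single genes in 3 lists of genes known to depend on HNF4A (18), POU3F3 (5) and TFCP2L1 (9), as grey points with the list median as a bar, beside the factor itself in red with its 95% interval. The HNF4A list spreads to both sides of 0, and 5 of 5 POU3F3 genes and 8 of 9 TFCP2L1 genes lie below it.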

How the data were processed

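The authors deposited 1 table of read counts per gene and exon lengths. Per the file headers, reads were counted with featureCounts 1.5.0-p2 over exons by gene name in GENCODE M8, with no strand, pair or duplicate option set, so overlapping genes on opposite strands cannot be separated and marked duplicates were kept. The build was mm10 and the tools included STAR and DESeq2, per the submitters' processing notes. Libraries were made with a TruSeq kit, per the labels' protocols, and its strandedness is not given in the sources used here. In the series text the libraries are biological replicates.

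Counts were tested in edgeR 4.0.16 (R 4.3.3): filterByExpr, TMM scaling, quasi-likelihood F test of genotype with no covariate, and Benjamini-Hochberg adjustment over 16910 genes at 0.05. Standard errors and intervals of 95% come from the F statistic. Log2 CPM used a prior count of 2. Alternatives were DESeq2 1.42.0, limma 3.58.1 (voom), other scalings and filters, the robust fit, the animal run as covariate, animals 573 to 602 alone, and leaving out each library. Single values were compared by exact permutation over 924 divisions of 12 libraries, with 0.0022 as the smallest p. Within animals 573 to 602 there are fewer divisions and the smallest p is larger. Correlations were compared by 100000 permutations, or by all orders within subsets. The fits were tested on simulated data.

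Members and gene lists were chosen with earlier results of these data known. Named genes are the 8 factors, A1cf, genes overlapping them, the genes most correlated with each, and per list those past the threshold, the 2 with the smallest p and the 2 with the highest CPM. Some of these are not reported here. Promoters are from RefSeq (GRCm38.p6), where all 8 symbols matched.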

Additional observations from a re-analysis of the deposited data

Results flagged for a closer look

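Of 24 groups of 6 libraries examined (the CPM of each factor and the 4 factors set against segment markers, in each genotype), 1 held a library whose gap to its nearest neighbour was a large share of the group's range. Set against principal and intercalated cell markers, Pax2 was at -0.98 log2 units in WT 777 and from -1.71 to -1.46 in the other 5 WT libraries, with the gap making up 0.65 of the range. At a level of 95% chance marks about 5% of such groups. WT 777 is also the library with the highest urothelial markers, at 110.6 CPM summed, and the part of these in the level of Pax2 was not tested.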

How the results depend on the processing

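No factor passed the threshold in any of the 21 alternatives, and the adjusted p of Tfcp2l1 ran from 0.085 (DESeq2) to 0.80 (animals 573 to 602 alone). Genes past the threshold numbered 8, but 170 with the DESeq2 Wald test and 24 with the animal run as covariate, and 6 to 12 when 1 library was left out, for which the cause was not tested. Log2 fold changes that turned in sign were Hnf4a (-0.10 within animals 573 to 602), Pax8 (0.011 with the covariate and 0.012 without WT 777, where leaving out libraries gave -0.060 to 0.012) and Lhx1 (-0.0017 without A1cf KO 591, range -0.0017 to 0.13). Of the factors set against their segment, Hnf4a turned to -0.035 with the list median and -0.014 within animals 573 to 602, and leaving out libraries gave -0.018 to 0.057, with negative values without WT 601 (-0.011) and without A1cf KO 780 (-0.018). Pax2 turned to 0.059 with the list median and 0.091 within animals 573 to 602, and leaving out libraries gave -0.054 to 0.093, with positive values without WT 777 (0.093) and without A1cf KO 588 (0.030). Pou3f3 passed with the list median (0.35) and without WT 601 (0.28), with a range of 0.19 to 0.28 when 1 library was left out. The relations past the threshold, 1 of 28 between factors and 2 of 40 with segment lists, came to 0 and 0 without the 2 libraries farthest from the median, within WT, within A1cf KO and within animals 573 to 602, each with fewer libraries. Within 1 genotype, with 6 libraries, a single relation of the 40 could not pass, so those settings cannot tell whether the 2 relations hold. In 2 settings added after seeing the data, the median log2 fold change of a list turned in sign for adult tubule factors (0.0073) and urothelium (0.59) without WT 777, and for nephron progenitor factors (0.24), the proximal tubule (-0.049) and urothelium (0.77) within animals 573 to 602. No paired analysis was possible because the genotypes share no animal number.

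The lowest count of any factor was 576, so counting error was small beside the spread between libraries. With 6 libraries per genotype, the 95% intervals of the log2 fold changes reached from -0.49 (Pax2) to 0.31 (Emx2), which sets the precision of these comparisons. The run of animal numbers is uneven between genotypes, with 1 A1cf KO animal in 776 to 780, so its part in Tfcp2l1 and Hnf4a was estimated only through the covariate and within animals 573 to 602.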
